A study of Mus musculus with 75 samples.

Results

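Nuclei of hypothalamic cells without the long leptin receptor (LepRb) were compared between mice that had fasted and received leptin and mice that had fed freely. The comparison took 12 of the 75 samples of the series, made up of 6 H3K27ac ChIP-seq and 6 ATAC-seq libraries. Members were chosen by the labelled treatment and sort alone, as the GFP-negative libraries of the fed group and of both leptin groups, and no measured value entered the choice. All mice were LepRcre/+; SUN1-sfGFP/+ and at least 2 months old, so that Cre driven from the leptin receptor gene had switched on a GFP-tagged protein of the nuclear envelope in cells with the receptor. Hypothalami were pooled and their nuclei sorted by flow cytometry, with 300000 to 540000 nuclei for ChIP-seq.

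In the group Fed, mice ate freely for 36 h, and the treatment label names saline. In Lep2, mice fasted for 36 h and received leptin at 5 mg/kg once, at 34 h, and the label gives 2 hours of leptin. In Lep24, mice fasted for the same 36 h and received leptin at 5 mg/kg at 12, 24 and 34 h, and the label gives 24 hours. Each group had 2 GFP-negative libraries per assay, replicates 1 and 2, so that 4 leptin libraries stood against 2 Fed libraries. The GFP-negative libraries of mice that fasted for 36 h with saline (Fast) entered no test and are quoted only as values. Since both leptin groups fasted and Fed did not, leptin and fasting cannot be told apart in this comparison.

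The GFP-negative fraction is a mixture. It holds neurons without the receptor, glia, and vascular and ependymal cells, together with any receptor cell in which the Cre-dependent tag was not made. In such a mixture, a change in the share of a cell type and a change of signal per nucleus cannot be told apart. The sort could not be checked against marker genes, because the files give positions without gene names and the gene tables at hand are not of the files' build, mm9. Regions are therefore given by mm9 position only. Whether replicates 1 and 2 came from different pools of mice is not stated in the labels. The p-values therefore rest on the spread between these libraries alone, which may be technical.

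Leptin is a hormone made by fat tissue, and its level in blood falls during a fast. In the hypothalamus it acts on neurons that carry LepRb, which signal through JAK2 and STAT3 and pass the signal on to other neurons by synapses and peptides. Cells without the receptor are reached by leptin by way of other cells, while fasting also reaches them through glucose, insulin, glucocorticoids and other signals. H3K27ac, acetylation of lysine 27 of histone H3, marks active promoters and enhancers. ATAC-seq measures open chromatin by the ease with which a transposase cuts DNA.

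The tables held normalized signal, so the read depth behind a value was unknown. The median step between neighbouring signal values from 5 to 15 gets smaller with deeper sequencing, and it was 0.8 to 1.1 in H3K27ac replicate 1 and 1.1 to 1.6 in replicate 2. For ATAC it was 0.5 to 0.7 in replicate 1 and 0.9 to 1.2 in replicate 2. It was smaller in replicate 1 in each group except for H3K27ac in Lep2, where both libraries had 1.1. The 3 replicate 1 libraries of H3K27ac stood apart from the 3 replicate 2 libraries. On the mitochondrial genome lay 0.187 to 0.238% of their signal, against 0.0203 to 0.0384% in replicate 2. In the first 300 kb of the assembled chromosomes it was 1.35 to 1.73%, against 0.239 to 0.27%. Their X-chromosomal share was 0.70 to 0.728%, and that of replicate 2 was 1.11 to 1.19%. Each of the tested groups had 1 library of either kind, and the fit held the replicate number as a block. Fast replicate 1, outside the test, was near the replicate 2 libraries in these H3K27ac shares, at 0.0163%, 0.215% and 1.23%. Its H3K27ac values are therefore no match for replicate 1 of the other groups.

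**Figure D1:**
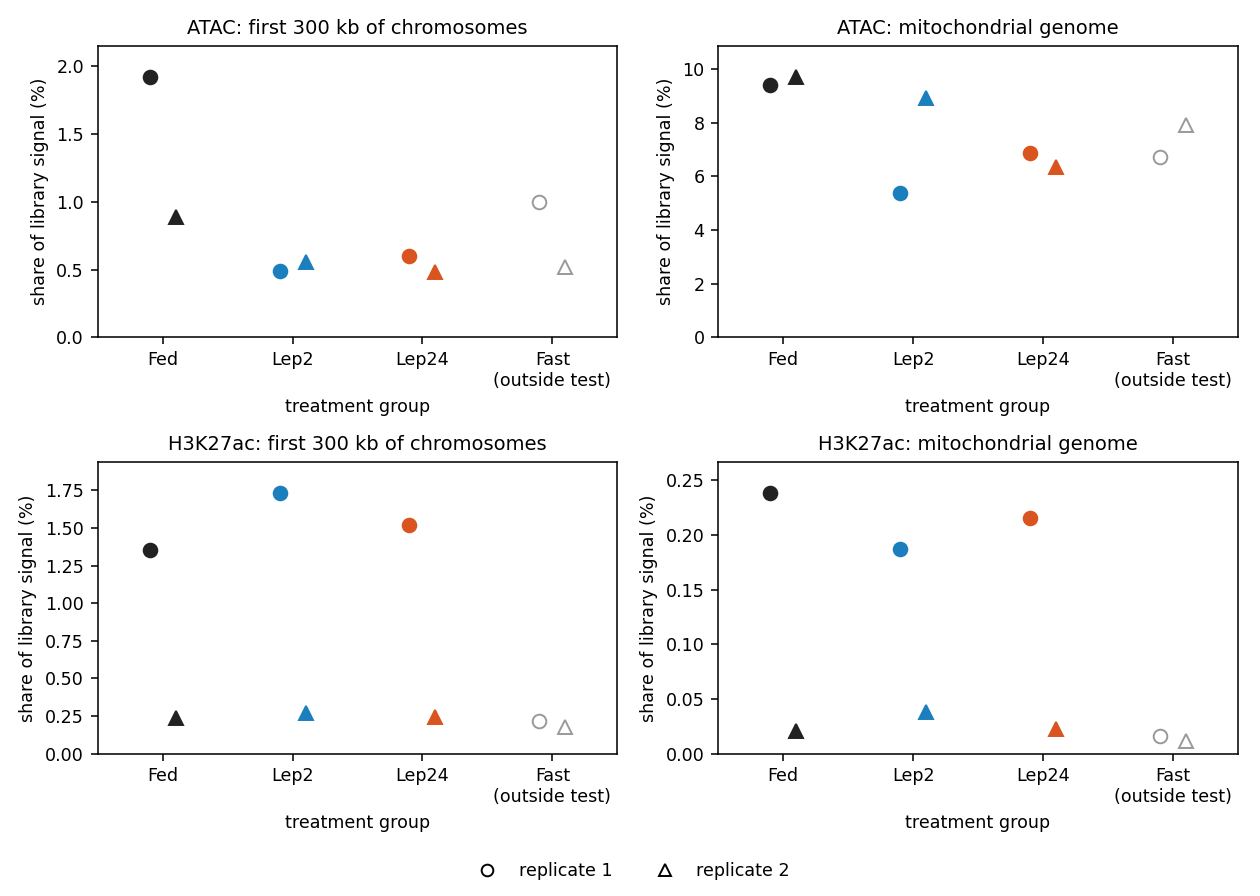
Share of each GFP-negative library's signal (percent, vertical axes) in the first 300 kb of the assembled chromosomes and on the mitochondrial genome, for ATAC (top) and H3K27ac (bottom), by treatment group. Circles are replicate 1, triangles replicate 2, and open grey symbols are Fast libraries outside the test. In ATAC, Fed replicate 1 lies highest in the left panel at 1.92%, and Fed replicate 2 at 0.885% lies above the leptin libraries but below Fast replicate 1 at 1.00%, while in H3K27ac replicate 1 of Fed, Lep2 and Lep24 lies above every replicate 2.

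ATAC signal in nuclei without LepRb was lower after leptin in the fasted mice at 33 regions and higher at 2 (0.106% and 0.00641%), of 31185 regions tested out of 48634. Together the 35 regions were 0.112% of those tested, at a limma adjusted p under 0.05. The 33 lower regions had log2 changes of −1.72 to −0.51, where the log2 change is the mean of log2(signal + 1) over leptin libraries less that over Fed within replicate numbers. At all 33, both leptin schedules lay below Fed within each replicate number. The 33 were picked by the mean of these same changes, so this agreement is no test of one replicate or schedule against the other. The change was the larger in replicate 1 at 31 of the 33, with a median of −0.97 in replicate 1 and −0.49 in replicate 2.

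Most of the lower regions were places of very strong ATAC signal, and a few were long stretches of weak signal. Their median Fed signal was 246.8, and the 35 regions had a median signal of 164.4 over the 6 libraries, against 20.52 for all tested regions. Of the 35, 23 were among the 312 regions with the most signal per kb in the 10 ATAC libraries outside the test, and 7.37% of those 312 passed. By contrast 6 of the 33 lower regions lay in the lowest 50% of signal per kb, where 0.0385% passed, among them chrX:166578330-166589367. The first 300 kb of the assembled chromosomes held 7 of them among 44 regions tested there (15.9%), and 5 were among the 27 tested regions of at least 10 kb (18.5%). Over those 27 the median log2 change was −0.46, and 3.7% were higher. Their median was −0.90 and −0.10 in replicates 1 and 2 of Lep2, and −0.35 and −0.14 in those of Lep24. Mouse chromosomes have their centromere at one end, and their assembled sequence starts beside it, where satellite repeats are common.

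The region with the smallest p was chr9:3000010-3038202, which is 38193 bp long and starts at the first assembled bases of chromosome 9. Its signal was 22665.5 and 9226.0 in Fed replicates 1 and 2, 3906.0 and 4719.4 in Lep2, and 5446.7 and 3704.9 in Lep24. Both Fed libraries lay above all 4 leptin libraries, and Fed replicate 1 was far above Fed replicate 2. The log2 change was −1.72 (SE 0.15, adjusted p = 1.14e-08), a 3.29-fold lower signal. The change was −2.30 in replicate 1 and −1.14 in replicate 2. Fast libraries, outside the test, carried 10127.8 and 4144.3, so that Fast replicate 1 lay inside the range of Fed and Fast replicate 2 inside that of the leptin libraries.

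A pair of regions 2 kb apart in the middle of chromosome 2 showed the same pattern. At chr2:98502412-98504231 the signal was 5482.7 and 2971.3 in Fed, 1351.9 and 1800.3 in Lep2, and 1887.6 and 1557.9 in Lep24 (log2 −1.30, SE 0.13, adjusted p = 1.94e-07). At chr2:98506418-98507401 it was 17401.3 and 8176.7 in Fed, 4246.2 and 5190.4 in Lep2, and 6381.5 and 4432.8 in Lep24 (log2 −1.26, SE 0.14, adjusted p = 1.53e-06). In both, Fed lay above leptin without overlap. The second of them turned to a log2 change of 0.16 (adjusted p = 0.00973) when the 6 libraries were quantile normalized, a step that gives every library the same set of values. The second thus passed in the opposite direction under that step. The first did not pass under it, and its weakest log2 change over the alternatives run was −0.12.

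The starts of chromosomes 11 and 4 also carried less signal after leptin. At chr11:3000029-3004671 the signal was 294.2 and 135.7 in Fed, 61.0 and 75.4 in Lep2, and 68.4 and 70.8 in Lep24 (log2 −1.53, SE 0.16, adjusted p = 8.72e-07). At chr4:3016777-3018268 it was 155.8 and 75.9 in Fed, 43.4 and 48.8 in Lep2, and 44.7 and 34.1 in Lep24 (log2 −1.34, SE 0.17, adjusted p = 2.56e-05). The 4 leptin libraries were close to one another at both, while Fed replicate 1 was about 2 times Fed replicate 2.

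A 2414 bp region on chromosome 17, chr17:13743599-13746012, lay away from any chromosome start. It carried 854.4 and 435.5 in Fed, 227.5 and 305.0 in Lep2, and 265.5 and 237.2 in Lep24. Fed lay above leptin without overlap (log2 −1.24, SE 0.14, adjusted p = 1.53e-06). The same place carried more H3K27ac after leptin, as described with the H3K27ac regions.

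The X chromosome held 4 of the lower regions and 1 higher region, together 0.887% of the 564 tested there. Over those 564 the median log2 change was 0.13, and 69.1% were higher. Of the 4 lower regions, 3 lay close together near the far end of the chromosome, where mice carry the pseudoautosomal region shared with the Y chromosome. At chrX:166578330-166589367 the signal was 101.6 and 83.3 in Fed, 23.7 and 50.8 in Lep2, and 42.6 and 41.4 in Lep24 (log2 −1.25, SE 0.19, adjusted p = 0.0006). At chrX:166427304-166446973 it was 2548.2 and 1602.1 in Fed, 1002.6 and 1101.9 in Lep2, and 1436.7 and 1259.3 in Lep24 (log2 −0.76, SE 0.11, adjusted p = 0.0006). Neither region overlapped between the groups, and the second fell to a log2 change of 0.01 (adjusted p = 0.986) under quantile normalization.

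**Figure D2:**
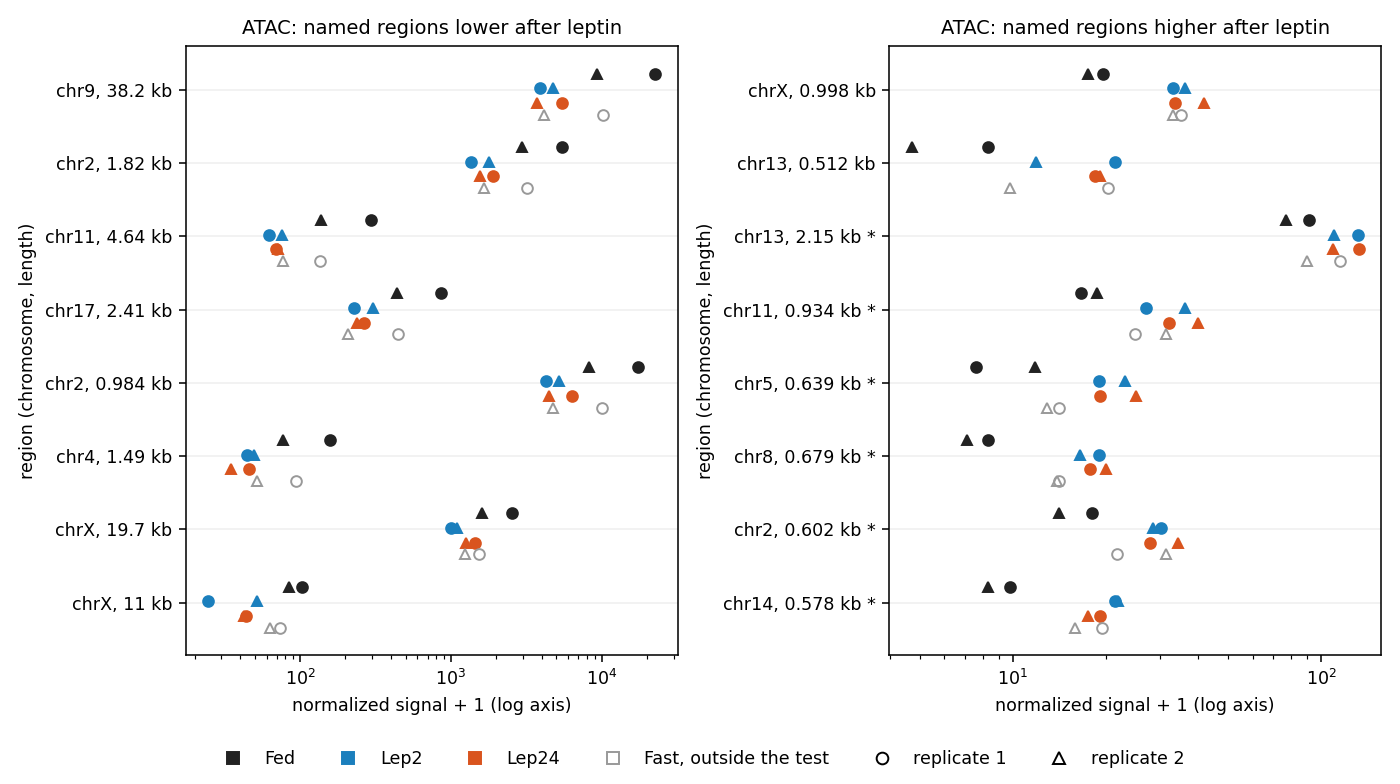
ATAC signal plus 1 (horizontal, log axis) in every GFP-negative library at the 8 named regions lower (left) and the 8 named regions higher (right) after leptin, labelled by chromosome and length. An asterisk marks a region with an adjusted p of 0.05 or more, circles are replicate 1, triangles replicate 2, and grey open symbols are Fast libraries outside the test. Black Fed symbols lie to the right of all blue and orange leptin symbols in the left panel and to the left of them in the right panel, as the naming rule requires.

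The 8 regions above were named by smallest p among those without overlap between the groups, a condition that 16 of the 33 lower regions met and that 6.96% of all tested regions met in the same direction. The other 17 lower regions were mostly short, 15 of them under 1 kb, and 16 were in the top 1% of signal per kb. In all 17, Fed replicate 2 was above Fed replicate 1, by 1.25 to 2.69 times, so that the groups overlapped across replicates although leptin lay below Fed within each. Examples, chosen after their values were seen, were chr3:5860356-5860826 and chr9:123370924-123371303. The first carried 749.7 and 1787.3 in Fed, 361.3 and 1513.0 in Lep2, and 507.8 and 1199.5 in Lep24 (log2 −0.61, SE 0.11, adjusted p = 0.00587). The second carried 581.8 and 1397.8 in Fed, 300.1 and 1143.9 in Lep2, and 421.7 and 854.4 in Lep24 (log2 −0.60, SE 0.11, adjusted p = 0.00622).

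The share of ATAC signal on the mitochondrial genome moved with these regions. The mitochondrial genome held 9.41% and 9.69% of the library in Fed, 5.39% and 8.92% in Lep2, 6.85% and 6.34% in Lep24, and 6.73% and 7.91% in Fast. The first 300 kb of the chromosomes held 1.92% and 0.885% in Fed, 0.493% and 0.553% in Lep2, 0.603% and 0.486% in Lep24, and 1.00% and 0.517% in Fast. That second share includes the signal of chr9:3000010-3038202 and the other regions that passed there, so it is no separate measure. Over the 44 regions tested there the median log2 change was −0.06, and 43.2% were higher. The mitochondrial share was highest in the 2 Fed libraries among the 6 tested. In the 10 ATAC libraries outside the test, the log2 signal of the 33 regions had a median Pearson's r of 0.79 with that of the mitochondrial genome (range 0.30 to 0.91), against −0.02 over all tested regions. These values share libraries and depth and are given without a test. With the mitochondrial signal of each library as a term beside the replicate block, 1 region passed (chr9:3000010-3038202, log2 −1.04, adjusted p = 0.000873), in a fit that leaves 2 residual degrees of freedom. The part of the mitochondrial share in the calls was otherwise not tested.

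Higher ATAC signal after leptin passed at 2 regions, both short and of moderate signal. At chr13:13981697-13982208 the signal was 7.3 and 3.7 in Fed, 20.4 and 10.9 in Lep2, and 17.5 and 18.2 in Lep24 (log2 1.47, SE 0.31, adjusted p = 0.042). At chrX:23269758-23270755 it was 18.6 and 16.6 in Fed, 32.1 and 35.1 in Lep2, and 32.6 and 40.6 in Lep24 (log2 0.95, SE 0.20, adjusted p = 0.039). In both, all leptin libraries lay above both Fed libraries, which 7.03% of all tested regions did. The Fast libraries carried 19.3 and 8.8 at the first and 34.0 and 32.2 at the second, also above Fed.

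The 6 further named regions with higher ATAC signal did not pass, with adjusted p from 0.0602 to 0.131. The largest signal among them was at chr13:5859828-5861980, with 90.7 and 75.9 in Fed, 131.1 and 109.3 in Lep2, and 131.5 and 108.7 in Lep24 (log2 0.52, SE 0.12). At chr5:86224358-86224996 the signal was 6.6 and 10.8 in Fed, 18.0 and 22.1 in Lep2, and 18.2 and 24.1 in Lep24 (log2 1.18, SE 0.26). At chr8:33756074-33756752 it was 7.3 and 6.1 in Fed, 18.0 and 15.5 in Lep2, and 16.8 and 19.1 in Lep24 (log2 1.25, SE 0.29). The leptin libraries were near one another at all 3 and lay above both Fed libraries. The regions chr11:86620505-86621438, chr2:108769618-108770219 and chr14:114313000-114313577 had log2 changes of 0.92, 0.92 and 1.14.

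In this fit, limma with the replicate number as a block, an unadjusted p under 0.05 was found at 2608 ATAC regions (1406 higher, 1202 lower). Without the block 4 regions passed, all lower. Without Fed replicate 1 the count was 3 (1 higher, 2 lower) and without Lep24 replicate 2 it was 21. Of the 8 named lower regions, 2 passed without Fed replicate 1, chr9:3000010-3038202 and chr2:98502412-98504231. Neither higher region passed when either Fed library, either Lep24 library or Lep2 replicate 1 was left out. The 95% interval of a region's log2 change reached 0.49 to either side in the median, and smaller changes were not detectable at a typical region. That interval is before adjustment over regions, so larger changes could also fail to pass, as at chr8:33756074-33756752 (log2 1.25).

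H3K27ac changed at 24 of 98397 regions tested out of 126368, 12 higher and 12 lower after leptin (0.0122% each). Together they were 0.0244% of those tested. The changes were large at most of them, with 19 of the 24 differing at least 2-fold, but were carried mainly by replicate 1. The median log2 change of the 12 higher regions was 2.69 in replicate 1 and 0.485 in replicate 2. For the 12 lower regions it was −4.46 in replicate 1 and −0.41 in replicate 2. The sign was the same in both replicates at 21 of the 24, against 51.5% of all tested regions. The 24 were picked by the mean of these same changes, so the count does not test one replicate against the other.

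All 12 regions with lower H3K27ac were places where a single Fed library stood above every other library. Fed replicate 1 was the highest of all 16 H3K27ac libraries at each, and at 9 of them it was at least 10-fold above each of the other 5 libraries in the test. At chr5:93955896-93973983, which is 18088 bp long, Fed replicate 1 carried 3773.8 and Fed replicate 2 carried 2.9. Lep2 was listed at 0 in both libraries, Lep24 at 3.3 and 0, and Fast at 0 in both. The log2 change was −6.40 (SE 0.97, adjusted p = 0.00423), of which −10.83 in replicate 1 and −1.96 in replicate 2. This and the chromosome 4 region below are quoted after their values were seen, since no lower region met the rule for named regions and passed. Both reached the mean signal of 10 needed for testing only through Fed replicate 1. Their p-values therefore rest on the same library that let them be tested.

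Of the 12, 6 lay on chromosome 5, and 4 of those within 178.2 kb of each other, between 93955896 and 94134107. Over these 4, Fed replicate 1 carried 269.5 to 3773.8 and Fed replicate 2 carried 2.9 to 20.0. On chromosome 4, chr4:145591930-145615018 carried 3311.9 and 4.4 in Fed, 5.1 and 2.4 in Lep2, and 6.3 and 2.9 in Lep24 (log2 −4.76, SE 0.78, adjusted p = 0.0059). The GFP-positive Fed library of the same replicate number was raised at the same places, with 661.0 at the first chromosome 5 region and 596.6 at the chromosome 4 region, against 0 and 3.9 in GFP-positive Fed replicate 2. At 16 of all 24 H3K27ac regions that passed, GFP-positive Fed replicate 1 differed at least 4-fold from the median of the other 7 GFP-positive libraries, as it did at 0.112% of tested regions.

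Among the higher regions, the smallest p was at chr17:13743332-13746204, which covers the ATAC region on chromosome 17 described above. It carried 62.0 and 164.7 in Fed, 1655.8 and 221.0 in Lep2, and 1655.4 and 171.1 in Lep24. Both leptin libraries of replicate 1 were over 26 times their Fed partner, while in replicate 2 the libraries were close. The log2 change was 2.48 (SE 0.38, adjusted p = 0.00423), with 4.72 in replicate 1 and 0.24 in replicate 2. Fast libraries carried 129.2 and 76.1, and both were near the replicate 2 libraries in their mitochondrial, chromosome-start and X-chromosomal shares.

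Another 3 named regions had this pattern of a gain in replicate 1. At chr17:13498617-13499308 the signal was 10.8 and 34.8 in Fed, 179.6 and 58.5 in Lep2, and 215.2 and 40.8 in Lep24 (log2 2.27, SE 0.36, adjusted p = 0.00564). At chr8:19924696-19925615 it was 14.3 and 25.4 in Fed, 176.3 and 37.8 in Lep2, and 140.3 and 34.6 in Lep24 (log2 1.93, SE 0.33, adjusted p = 0.00783). At chrY:2777388-2777887 it was 13.4 and 14.5 in Fed, 121.8 and 19.9 in Lep2, and 134.1 and 26.9 in Lep24 (log2 1.90, SE 0.33, adjusted p = 0.0125). In replicate 2 these 3 regions differed by 0.48 to 0.64 on the log2 scale. The whole Y chromosome held 0.141 to 0.168% of the signal in replicate 1 and 0.0203 to 0.023% in replicate 2, and its part in this result was not tested. The sex of the pooled animals is not in the labels used here.

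The remaining 4 named higher regions rose in both replicates. At chr14:9130319-9150978, a 20660 bp stretch, the signal was 442.6 and 391.6 in Fed, 576.5 and 593.1 in Lep2, and 529.6 and 659.7 in Lep24. The 4 leptin libraries averaged 589.7 ± 53.8 (SD, n = 4) and the 2 Fed libraries 417.1 ± 36.1 (SD, n = 2), without overlap. The log2 change was 0.50 (SE 0.10, adjusted p = 0.0303), a 1.41-fold higher signal. The Fast libraries carried 554.1 and 512.2, also above both Fed libraries.

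At chr14:57727962-57738409, a second long region of the same chromosome, the signal was 125.6 and 109.8 in Fed, 184.5 and 202.5 in Lep2, and 174.9 and 226.8 in Lep24 (log2 0.74, SE 0.15, adjusted p = 0.0498). Fast carried 195.3 and 187.1 there. At chr8:119622745-119625442 the signal was 12.5 and 7.3 in Fed, 41.4 and 25.3 in Lep2, and 33.6 and 28.4 in Lep24 (log2 1.62, SE 0.32, adjusted p = 0.0487). Fast carried 20.7 and 28.1. Each of these lay near the threshold, since the last region that passed had an adjusted p of 0.0498 and the first that did not had 0.0509.

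At chr4:127029870-127031977 the signal was 5.0 and 26.8 in Fed, 52.3 and 45.1 in Lep2, and 33.6 and 48.5 in Lep24 (log2 1.81, SE 0.33, adjusted p = 0.0218). All leptin libraries lay above both Fed libraries, and Fed replicate 1 lay well below Fed replicate 2. The change was 2.84 in replicate 1 and 0.78 in replicate 2, so this gain too was carried mainly by replicate 1. A 58697 bp stretch of chromosome 4, chr4:104835855-104894551, also passed, with 1306.2 and 766.2 in Fed, 1615.4 and 1050.5 in Lep2, and 1482.5 and 1080.0 in Lep24 (log2 0.36, SE 0.07, adjusted p = 0.0261). Here leptin lay above Fed within each replicate number, while the groups overlapped across them, and the region is quoted after its values were seen.

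**Figure D3:**
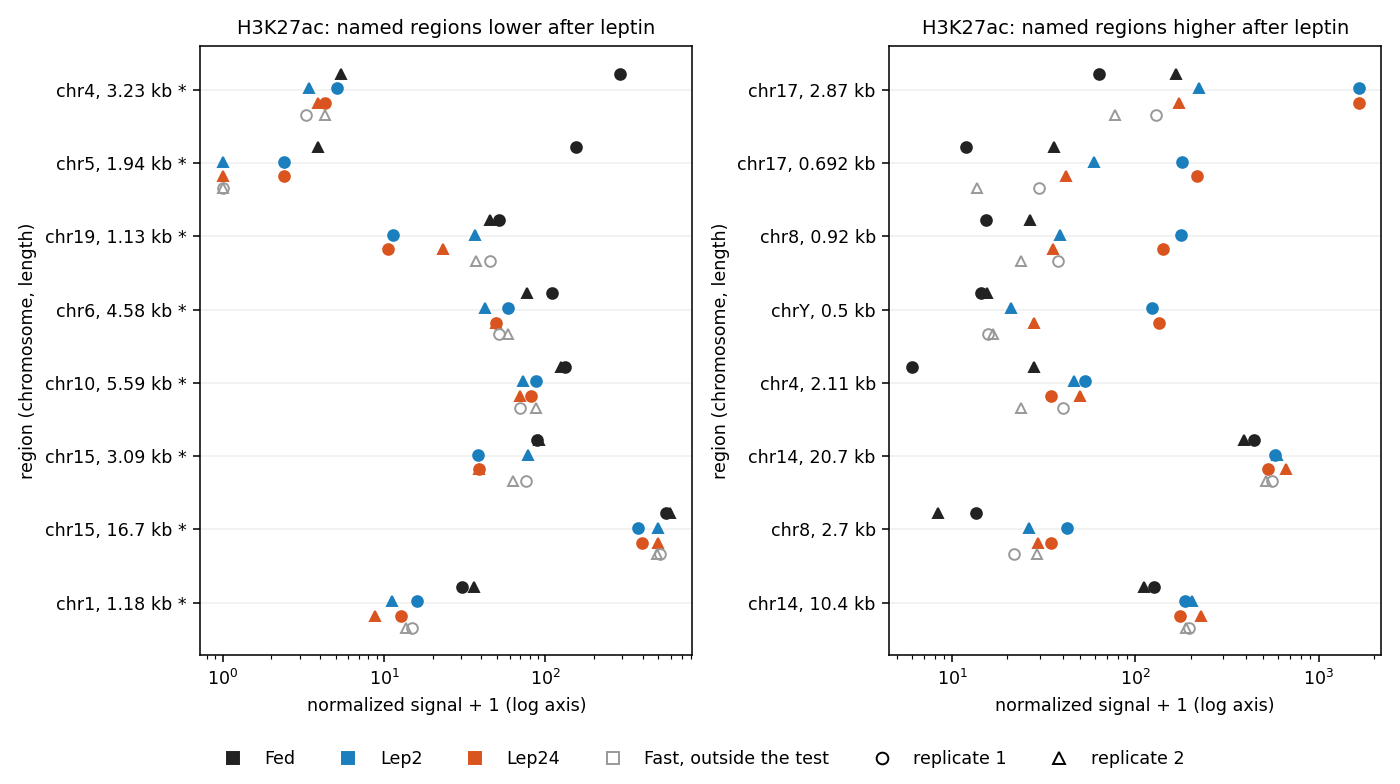
H3K27ac signal plus 1 (horizontal, log axis) in every GFP-negative library at the 8 named regions lower (left, none of which passed) and the 8 named regions higher (right, all of which passed) after leptin, labelled by chromosome and length. An asterisk marks an adjusted p of 0.05 or more, circles are replicate 1, triangles replicate 2, and grey open symbols are Fast libraries outside the test. At the top 4 regions on the right the blue and orange circles of replicate 1 stand far to the right of all other symbols. At the lower 4 both replicates shift, though at the chromosome 4 region replicate 1 shifts more.

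Of the 12 higher regions, 8 had leptin and Fed libraries that did not overlap, as did 4.54% of all tested regions, and of the 12 lower regions 0 did, against 4.41%. The 8 named lower regions, taken by smallest p among those without overlap, did not pass, with adjusted p from 0.074 to 0.246. At chr10:18412606-18418194 the signal was 130.2 and 124.6 in Fed, 86.8 and 71.7 in Lep2, and 80.4 and 68.3 in Lep24 (log2 −0.73, SE 0.18). At chr6:137212557-137217135 it was 108.4 and 76.1 in Fed, 57.9 and 41.0 in Lep2, and 48.2 and 48.5 in Lep24 (log2 −0.89, SE 0.21). At chr1:79635062-79636236 it was 29.3 and 34.8 in Fed, 14.9 and 10.2 in Lep2, and 11.7 and 7.8 in Lep24 (log2 −1.47, SE 0.38). These 3 were lower in both replicates, and the Fast libraries lay below both Fed libraries too, at 69.0 and 86.8, 50.3 and 57.7, and 13.8 and 12.7.

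On chromosome 15, chr15:77943618-77960289 carried 553.3 and 588.1 in Fed, 373.0 and 500.3 in Lep2, and 397.9 and 497.0 in Lep24 (log2 −0.38, SE 0.10), and chr15:92962927-92966020 had a log2 change of −0.96. The other 3, chr4:147023822-147027053, chr5:93986524-93988458 and chr19:61227184-61228309, had log2 changes of −3.26, −3.99 and −1.43. At the first 2 of these Fed replicate 1 carried 288.6 and 153.8 and every other library in the test under 5. Both were tested only because that library raised their mean signal above the filter.

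Before adjustment, limma gave 7647 H3K27ac regions with p under 0.05, 4155 higher and 3492 lower. Without the replicate block 0 regions passed (1959 at an unadjusted p under 0.05). Leaving out replicate 1 of Lep24, Lep2 or Fed left 0, 1 and 8 regions, and leaving out replicate 2 of the same groups gave 54, 55 and 265. None of the 8 named higher regions passed without the block or without any 1 of the replicate 1 libraries. With a prior variance that treats unusually variable regions apart, 0 regions passed (7701 at an unadjusted p under 0.05). The 95% interval of a region's log2 change reached 0.53 to either side in the median.

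**Figure D4:**
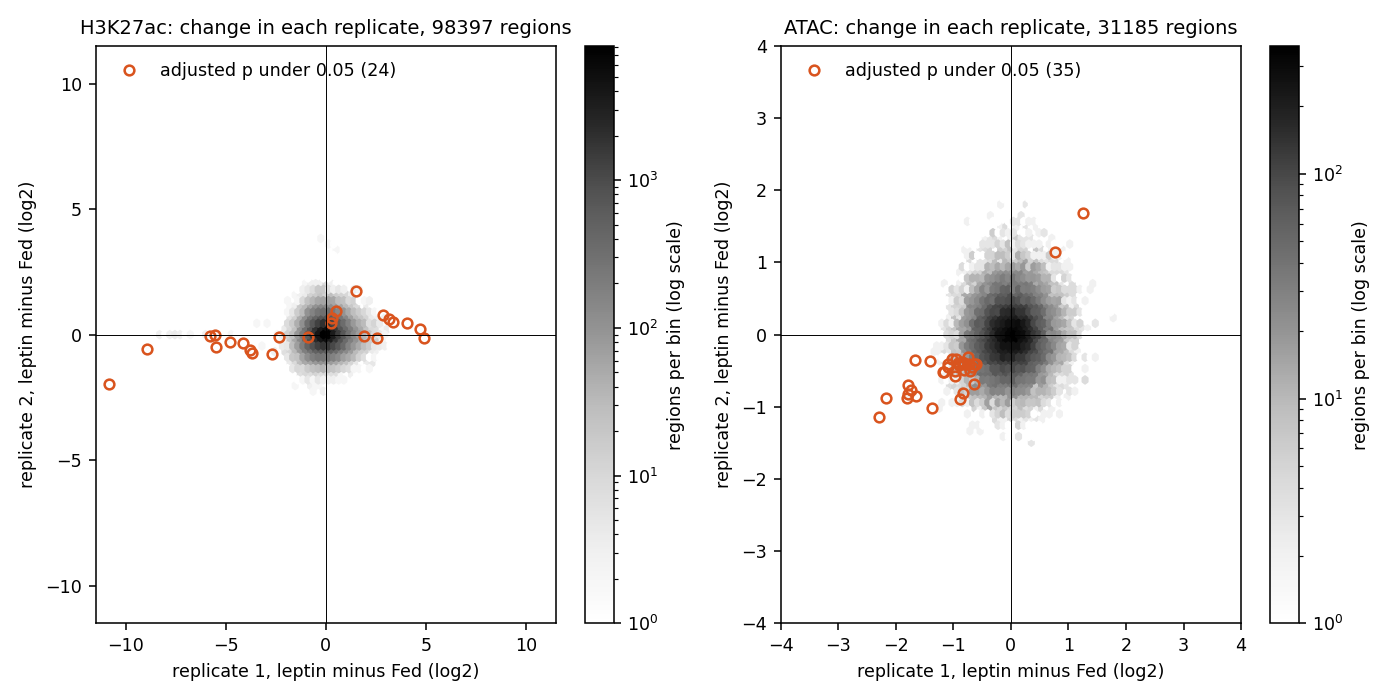
Change after leptin (log2, leptin minus Fed) in replicate 1 (horizontal) and replicate 2 (vertical) for all tested H3K27ac regions (left) and ATAC regions (right). Grey hexagons give the number of regions per bin on a log scale and orange circles the regions with an adjusted p under 0.05. The 24 H3K27ac regions spread along the horizontal axis, while the 35 ATAC regions lie away from zero in both replicates.

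Across all tested regions, the changes seen in replicate 1 and in replicate 2 bore little relation to each other. Spearman's rho across regions was 0.045 for H3K27ac and 0.057 for ATAC, where regions are not independent replicates. The sign was the same in both replicates at 51.5% of H3K27ac and 51.8% of ATAC regions. The median log2 change over all tested regions was −0.003 and 0.005, so the deposited scaling left the groups level.

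Classes of regions set by the difference between the sorts in the Fast libraries, outside the test, moved little. The 3616 H3K27ac regions at least 2-fold stronger in GFP-negative than in GFP-positive nuclei in both Fast pairs had a median log2 change of 0.09. It was 0.01 and 0.00 in replicate 1 for Lep2 and Lep24, and 0.16 and 0.20 in replicate 2, and 0.0553% of them passed, against 0.0244% of all. The 801 regions stronger in GFP-positive nuclei had a median of −0.05 and 0 passed. For ATAC the 379 regions stronger in GFP-negative nuclei had a median of 0.09 and the 101 stronger in GFP-positive nuclei 0.05, and 0 passed in either class.

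The same places were then compared between the assays. Of the regions that passed, 26 of 35 in ATAC overlapped a tested H3K27ac region by at least 1 bp, and 6 of 24 in H3K27ac overlapped a tested ATAC region. Among all tested regions, 29534 of 31185 in ATAC and 23077 of 98397 in H3K27ac had such an overlap. Both assays passed at 2 overlapping pairs, and in both pairs the directions were opposite, with lower ATAC and higher H3K27ac signal. The first was the pair at chr17:13743599-13746012, with log2 changes of −1.24 for ATAC and 2.48 for H3K27ac. The second was chr9:3000010-3038202, at −1.72, over the H3K27ac region chr9:2999827-3009622, at 1.2 (adjusted p = 0.0279). The same ATAC region overlapped 4 further H3K27ac regions that did not pass, and these went both ways. From chr9:3011719-3012406 through chr9:3012407-3013098 to chr9:3013099-3015031 their log2 changes were −3.02, −3.08 and −3.74 (adjusted p = 0.603, 0.593 and 0.46). At chr9:3015032-3038464 the change was 0.69 (adjusted p = 0.0718).

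At chr9:2999827-3009622 the H3K27ac signal was 4209.0 and 1988.4 in Fed, 26575.2 and 2245.1 in Lep2, and 22673.6 and 1455.2 in Lep24, a log2 change of 2.54 in replicate 1 and −0.14 in replicate 2. The sign was the same in the assays at 0 of the 6 pairs with an H3K27ac region that passed and at 17 of the 38 with an ATAC region that passed, against 48.4% of all 30161 pairs. At chr14:9130319-9150978, where H3K27ac rose by 0.50, the overlapping ATAC region changed by −0.06 on the log2 scale (adjusted p = 0.959). At chr13:13981697-13982208, where ATAC rose by 1.47, the overlapping H3K27ac region had a log2 change of 0.52 (adjusted p = 0.784).

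The leptin schedules were set beside each other against the same Fed libraries, which both contrasts share. For H3K27ac, 13 regions passed in Lep2 against Fed (6 higher, 7 lower) and 13 in Lep24 against Fed (4 higher, 9 lower), each 0.0132% of those tested. For ATAC, 26 passed in Lep2 (1 higher, 25 lower; 0.0834%) and 25 in Lep24 (2 higher, 23 lower; 0.0802%). The ATAC region chr9:3000010-3038202 changed by −1.75 in Lep2 and −1.69 in Lep24, and the H3K27ac region chr17:13743332-13746204 by 2.57 and 2.39. The region with the smallest p for H3K27ac in Lep24 against Fed was chr2:98502227-98507677 (log2 −0.54, SE 0.06, adjusted p = 5.72e-06), whose values are given with the direct test of the schedules. The H3K27ac region with the smallest p for a higher signal in Lep24 was on chromosome 13. At chr13:120275327-120282123 the H3K27ac signal was 131.4 and 133.1 in Fed, 201.2 and 164.4 in Lep2, and 348.8 and 196.1 in Lep24 (Lep24 against Fed, log2 0.98, SE 0.18, adjusted p = 0.0341). At chr7:17643436-17644087 the ATAC signal was 17.1 and 10.8 in Fed, 29.3 and 50.8 in Lep2, and 14.6 and 34.1 in Lep24 (Lep2 against Fed, log2 1.44, SE 0.29, adjusted p = 0.00561). It was the 1 higher ATAC region of Lep2, and the 2 of Lep24 lay elsewhere. At chr11:43580378-43581033 the signal was 17.1 and 3.7 in Fed, 22.3 and 16.6 in Lep2, and 32.6 and 19.9 in Lep24 (Lep24 against Fed, log2 1.52, SE 0.33, adjusted p = 0.0218). At chr13:100736963-100737841 it was 11 and 10.8 in Fed, 19.9 and 18.8 in Lep2, and 24.0 and 34.9 in Lep24 (Lep24 against Fed, log2 1.33, SE 0.30, adjusted p = 0.0366). Both Lep2 libraries also lay above both Fed libraries at the chromosome 13 regions. The direct test of the schedules passed at chr2:98502227-98507677 and at none of these 4 other regions. Leaving out Fed replicate 2 moved the H3K27ac counts to 780 in Lep2 and 690 in Lep24, and the ATAC counts to 62 and 66. Without Lep2 replicate 1 there were 12 H3K27ac and 11 ATAC regions in Lep2, and without Lep24 replicate 2 there were 115 and 14 in Lep24. Without the replicate block 0 H3K27ac regions passed in either schedule (1055 and 1369 at an unadjusted p under 0.05, limma), and 1 ATAC region in each.

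Lep24 was tested directly against Lep2 to ask whether repeated leptin left another mark than a single late dose. For H3K27ac 1 region of 98397 passed (0.00102%; 4094 at an unadjusted p under 0.05), chr2:98502227-98507677, at the place of the ATAC pair on chromosome 2. It carried 1315248.7 and 36714.0 in Fed, 949767.0 and 44622.3 in Lep2, and 756949.6 and 30105.2 in Lep24. Lep24 lay below Lep2 in both replicates (log2 −0.45, SE 0.06, adjusted p = 0.000682), and replicate 1 was over 20 times replicate 2 in every group. Leaving out any 1 library gave 11 to 27 H3K27ac regions, and no block gave 0 (819 at an unadjusted p under 0.05, limma). For ATAC 0 regions passed (0%; 1152 at an unadjusted p under 0.05 in limma), and 19 without Lep2 replicate 1. The authors' deposited table for the same contrast lists 0 regions at an FDR under 0.05 in either assay, with a smallest FDR of 1. A raw p under 0.05 stands at 1500 regions of H3K27ac and 144 of ATAC in the authors' deposited table.

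GFP-positive nuclei, those with LepRb, were used to ask whether the changes differed between the sorts. In the test of the difference itself, 0 of 98444 H3K27ac regions passed (0%; 4787 at an unadjusted p under 0.05, smallest adjusted p 0.979, limma). For ATAC 0 of 31388 passed (0%; 1662 unadjusted, smallest adjusted p 0.861, limma). Leaving out Fed replicate 2 of the GFP-negative sort gave 5 H3K27ac regions, and leaving out Fed replicate 1 of the GFP-positive sort gave 9 ATAC regions. The 95% interval of the difference reached 0.71 and 0.78 on the log2 scale to either side in the median, and smaller differences were not detectable at a typical region. Those intervals are before adjustment over regions, so larger differences could also fail to pass. An ATAC difference of 1.92 at chr13:13981697-13982208 had a limma adjusted p of 0.861. Within GFP-positive nuclei, 0 regions passed in either assay (3857 and 1538 at an unadjusted p under 0.05, limma).

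At the regions that passed in GFP-negative nuclei, the H3K27ac changes had the same sign in GFP-positive nuclei at 23 of 24, against 52.9% of all tested regions. As given above, GFP-positive Fed replicate 1, which enters these changes, stood apart at least 4-fold from the other GFP-positive libraries at 16 of the 24. The shared sign is therefore no separate support. Over the 12 lower regions, the GFP-positive changes were −4.72 to −0.77, with a median of −1.62 against −2.39 in GFP-negative nuclei. For the 12 higher regions they were −0.23 to 2.85, with a median of 0.86 against 1.72. The last 4 named higher regions by p had GFP-positive changes of 0.02 at chr14:9130319-9150978, 0.32 at chr14:57727962-57738409, −0.23 at chr8:119622745-119625442 and 0.13 at chr4:127029870-127031977. The ATAC changes had the same sign at 31 of 35, against 52.6% of all, and were also smaller by their values. The median over the 33 lower regions was −0.75 in GFP-negative and −0.20 in GFP-positive nuclei. The regions were picked in one sort, so these gaps are a description. At chr9:3000010-3038202 the change was −0.30 in GFP-positive nuclei, and the difference between sorts was −1.42 (SE 0.31, unadjusted p = 7.18e-05, adjusted p = 0.861). In the test of the difference between sorts, the ATAC region with the smallest p toward a higher change in GFP-negative nuclei was chr13:13981697-13982208, at 1.47 against −0.45 (difference 1.92, SE 0.44, adjusted p = 0.861). In the same test of H3K27ac it was chr8:119622745-119625442, at 1.62 against −0.23 (difference 1.85, SE 0.39, adjusted p = 0.979).

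**Figure D5:**
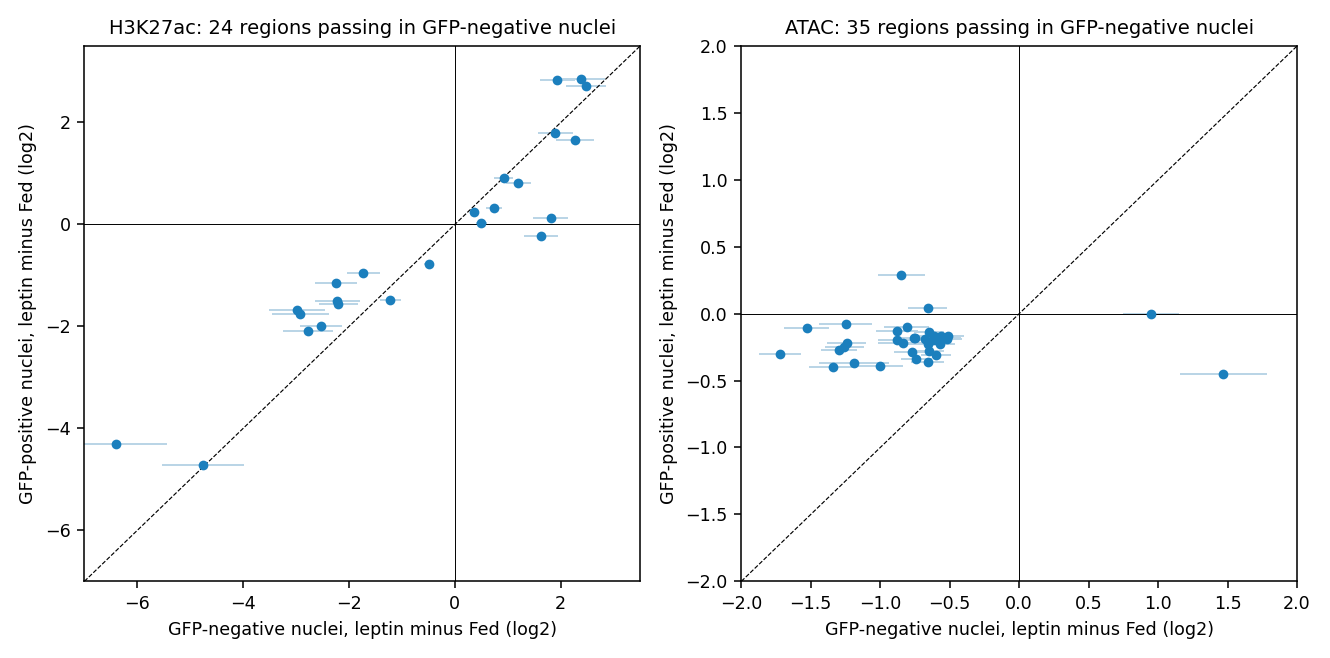
Change after leptin (log2, leptin minus Fed) in GFP-negative nuclei (horizontal, bars 1 SE) and in GFP-positive nuclei (vertical) at the 24 H3K27ac regions (left) and 35 ATAC regions (right) with an adjusted p under 0.05 in GFP-negative nuclei. The dashed line marks equal change. The H3K27ac points share their sign between the sorts at 23 of 24, and most lie nearer to zero in GFP-positive nuclei. The ATAC points of lower regions lie above the dashed line, between −0.40 and 0.29 on the vertical axis.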

How the data were processed

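The authors deposited, for H3K27ac and for ATAC, a table of normalized signal per region and library. The sources used here do not give the normalization method, and whole reads could not be recovered, so no count model was used. Per the file headers, further columns carry log2 fold changes, p-values and FDR of comparisons the authors made, quoted only where named. The submitters' processing notes name, with no role, the build mm9 and the tools MACS2, DESeq2 1.16.1, HTSeq 0.6.0, Bowtie2 2.2.6, Bowtie 1.2, STAR 2.5.2b and CASAVA 1.8. RNA and input samples were not used.

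Regions with a mean signal of at least 10 over the 6 libraries of an assay were tested on log2(signal + 1), which understates changes of low regions. limma 3.58.1 (R 4.3.3, intensity-dependent prior variance) was fitted with leptin (yes or no) and the replicate number as a block, leaving 3 residual degrees of freedom before moderation. P-values are two-sided, adjusted by Benjamini-Hochberg over all tested regions, and passed under 0.05. The schedules were compared with 3 group means and the block. The sorts were compared over 12 libraries by the interaction of leptin with sort, with the block within sort. The numbers paired the libraries by the data: deviations from the group means correlated at 0.5 to 0.58 (H3K27ac) and 0.16 to 0.2 (ATAC), while the labels do not say what a number marks. Overlaps used GenomicRanges 1.54.1 and at least 1 bp. Data handling used the R package data.table (version 1.17.8) and plots matplotlib 3.10.9. The fits were also run on simulated data, with independent normal noise whose variances came from the fits. No library was made to stand apart in them, so they do not cover single outlying libraries such as Fed replicate 1.

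Named regions are, per assay and direction, the 8 with the smallest p among regions whose leptin and Fed libraries do not overlap and whose sign is the same within each replicate number for both schedules, regions that pass coming first. For schedules and sorts, regions were taken from the 3 with the smallest p per direction. The members, rules and lists were chosen with earlier results of these data known. Gene panels and cell type markers were not run, as no mm9 annotation was at hand. Positions are mm9, counted from 1. Alternatives were no block, 3 group means, 12 libraries in the fit, quantile normalization, median centring, pseudocounts of 0.1 and 5, other filters, library weights, an adjusted p of 0.1, single replicates and each library left out. Those chosen after seeing the data were a prior without trend, a robust prior, leaving out the top 1% of signal per kb or regions where GFP-positive Fed replicate 1 stood apart, and the mitochondrial signal as a term.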

Additional observations from a re-analysis of the deposited data

Results flagged for a closer look

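The H3K27ac region chr2:98502227-98507677 is listed because the direct test of the leptin schedules passed there, with Lep24 below Lep2 by a log2 change of −0.45 (SE 0.06, limma adjusted p = 0.000682). Its signal was 949767.0 and 44622.3 in Lep2 and 756949.6 and 30105.2 in Lep24, so replicate 1 stood far above replicate 2 in both groups. Without the replicate block 0 regions passed this test. The authors' deposited table gives no region an FDR under 1 for the same contrast. Groups of 2 libraries are too small to single out a library by its gap from the others.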

How the results depend on the processing

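The H3K27ac count of 24 became 0 without the replicate block, with 12 libraries in the fit, with no filter, with a prior without trend and with a robust prior. It was 76 with a pseudocount of 5, 316 and 95 with replicate 1 or 2 alone, 1 without regions where GFP-positive Fed replicate 1 differed 2-fold and 69 with the mitochondrial term beside the block. The ATAC count of 35 became 4 without the replicate block, 22 with quantile normalization, 11 with no filter, 0 and 7 with replicate 1 or 2 alone (3216 at an unadjusted p under 0.05 in limma for replicate 1), 0 with a prior without trend (2450 unadjusted, limma) and 15 with a robust prior. It was 5 without the top 1% of signal per kb, 20 without regions where GFP-positive Fed replicate 1 differed 2-fold and 1 with the mitochondrial term beside the block. The cause was not tested. In the H3K27ac fits with 0 regions, 1959, 8446, 9412, 7225 and 7701 had an unadjusted p under 0.05, in the order given (limma).

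Without the block the H3K27ac counts were 0 for Lep2 against Fed, 0 for Lep24 against Fed and 0 for Lep24 against Lep2, and the ATAC counts 1 and 1 for both schedules against Fed. Of the 32 named regions, 14 lost their pass without the block. With quantile normalization chr2:98506418-98507401 had a log2 change of 0.16 and chrX:166427304-166446973 of 0.01. These were the only named regions to change sign under any alternative run.

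Leaving out 1 library at a time gave 0 to 265 H3K27ac and 3 to 38 ATAC regions for leptin against Fed. For Lep2 against Fed it gave 12 to 780 and 11 to 62, for Lep24 against Fed 37 to 690 and 14 to 66, and for Lep24 against Lep2 11 to 27 and 0 to 19. For the difference between sorts it gave 0 to 5 and 0 to 9. An arm left with 1 library is assumed to vary like the others. With 2 Fed libraries and unknown depth, small changes were not detectable.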
